A study of Mus musculus with 15 samples.

Results

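Crispld2 and 4 related genes of the CAP superfamily, Crispld1, Pi16, Glipr1 and Glipr2, were followed across perigonadal fat of mice after weight loss, during obesity and in the lean state. They are the rows of the deposited count table whose Entrez IDs map to these 5 symbols, 5 of 35794 IDs in all. Poly(A) RNA of whole perigonadal fat pads, the depot beside the gonads, was sequenced from C57BL/6 mice aged 14 weeks. Weight loss mice ate a 60% high-fat diet for 5 weeks from 8 weeks of age and then returned to chow for 1 week, obese mice were put on that diet at the same age for 5 weeks, and lean mice ate chow. What obese mice ate in the week before they were killed is not spelled out in the labels. The labels name no transgene, deletion or other agent. The groups had 4 weight loss, 5 obese and 5 lean libraries, which the series' design text calls independent. No label ties a library to an animal, so p-values measure the spread between these samples. Another weight loss library held 230 counts in all, none of them on the 5 genes, and entered no comparison.

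CAP proteins are named for cysteine-rich secretory proteins, antigen 5 and pathogenesis-related 1 proteins, and share a compact cysteine-containing fold. Most are secreted. Crispld2, also called Lgl1, and Crispld1 add LCCL domains, a module first described in an endotoxin-sensing factor of horseshoe crabs, and human CRISPLD2 binds bacterial lipopolysaccharide. Pi16 is best known as a marker of fibroblast-like progenitor cells that in fat also carry Dpp4. Glipr1 was described in human glioma as a p53-responsive gene, and Glipr2 encodes a Golgi-associated protein that, unlike most of the family, is not secreted.

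On mm10, RefSeq places Crispld2 (Entrez ID 78892) at chr8:119992438-120052794, Crispld1 (83691) at chr1:17727029-17767235 and Pi16 (74116) at chr17:29318796-29328903. Glipr2 (384009) lies at chr4:43957702-43979118 and Glipr1 (73690) at chr10:111985448-112002639. All are protein-coding. GENCODE M21 places exons of other genes over 352 of the 1543 exon bases of Glipr1 (Krr1, on the opposite strand), 548 of 4515 of Crispld1 and 222 of 6364 of Pi16 (antisense genes in both cases), and over none of the 4777 of Crispld2. Whether the counting used strand is not given in the sources used here, so reads from these stretches cannot be assigned to 1 gene.

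RefSeq's promoter table held windows for 3 of the 5 genes. The Crispld2 sequence is shown because that gene's level is the one the series is named for. It is the plus strand of GRCm38.p6, chr8:119992188-119992437, the 250 bases before the annotated start, and the capitals mark an E-box (CACGTG) 235 bases and a CCAAT box (CCAAT) 8 bases before the start.
Crispld2: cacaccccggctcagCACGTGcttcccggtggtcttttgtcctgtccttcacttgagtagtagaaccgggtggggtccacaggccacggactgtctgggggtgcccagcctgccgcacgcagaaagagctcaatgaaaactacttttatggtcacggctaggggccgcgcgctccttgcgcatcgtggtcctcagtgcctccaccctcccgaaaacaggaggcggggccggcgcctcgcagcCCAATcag
The search covered both strands of the 250 bases for 7 motifs. Of 32851 windows of the same length, 6.02% held CACGTG and 33.8% held CCAAT. The glucocorticoid receptor half-site AGAACA, the AP-1 site TGANTCA, the C/EBP-type site TTGCNNAA, the TATA box TATAAA and the GC box GGGCGG did not occur in the Crispld2 window, while 16.1%, 6.75%, 9.56%, 12.4% and 32.7% of all windows held them. The Pi16 window, chr17:29318632-29318881, ends just before a start that lies inside the gene span given above, so its matches, CCAAT 64 bases and AGAACA 27 bases before that start, also lie inside the span. The Glipr2 window held GGGCGG 3 times. The E-box of Crispld2 was not found in either. These are matches of letters, and no binding was measured.

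Totals of the 14 libraries ran from 13924770 to 33807887 counts. Levels are CPM, counts scaled to 1000000 per library with edgeR's TMM factors, and log2 fold changes carry standard errors from edgeR's quasi-likelihood test, with Benjamini-Hochberg adjustment over all 15208 genes tested and a threshold of 0.05. The 12 adipocyte markers, led by Fabp4, summed to between 25760 and 43890 CPM in every library. Markers of the epididymis, which adjoins this depot in males, were uneven, with 16 markers, led by Lcn8, summing to 8518, 2354 and 6517 CPM in obese replicates 2, 4 and 5 and to 3158 CPM in lean replicate 1, against 371 CPM in obese replicate 3 and at most 20.6 CPM in each other library. In whole fat, a greater number of cells of a type and more RNA per cell cannot be told apart.

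Per kilobase of exon, Pi16 had the highest mean level of the 5 genes in all 3 groups and Crispld1 the lowest. In weight loss fat Pi16 averaged 25.3 ± 10.8 CPM per kb, Crispld2 14.6 ± 1.65, Glipr2 8.52 ± 2.68, Glipr1 2.53 ± 0.767 and Crispld1 0.379 ± 0.185 (SD, n = 4). In obese fat Glipr2 had a higher mean than Crispld2, with 26.6 ± 6.92 CPM per kb for Pi16, 11.1 ± 1.91 for Glipr2 and 10.1 ± 1.18 for Crispld2 (SD, n = 5). In lean fat Pi16 (11.4 ± 3.22 CPM per kb) and Crispld2 (10.6 ± 0.762) stood side by side, ahead of Glipr2 at 5.22 ± 1.73 (SD, n = 5). The ranges of Glipr2 and Crispld2 overlapped in obese fat and those of Pi16 and Crispld2 overlapped in lean fat, so neither pair was ordered beyond its spread. Pi16 and Crispld2 also overlapped in weight loss fat, where Pi16 ranged from 15.0 to 38.2 and Crispld2 from 12.7 to 16.4 CPM per kb.

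**Figure D1:**
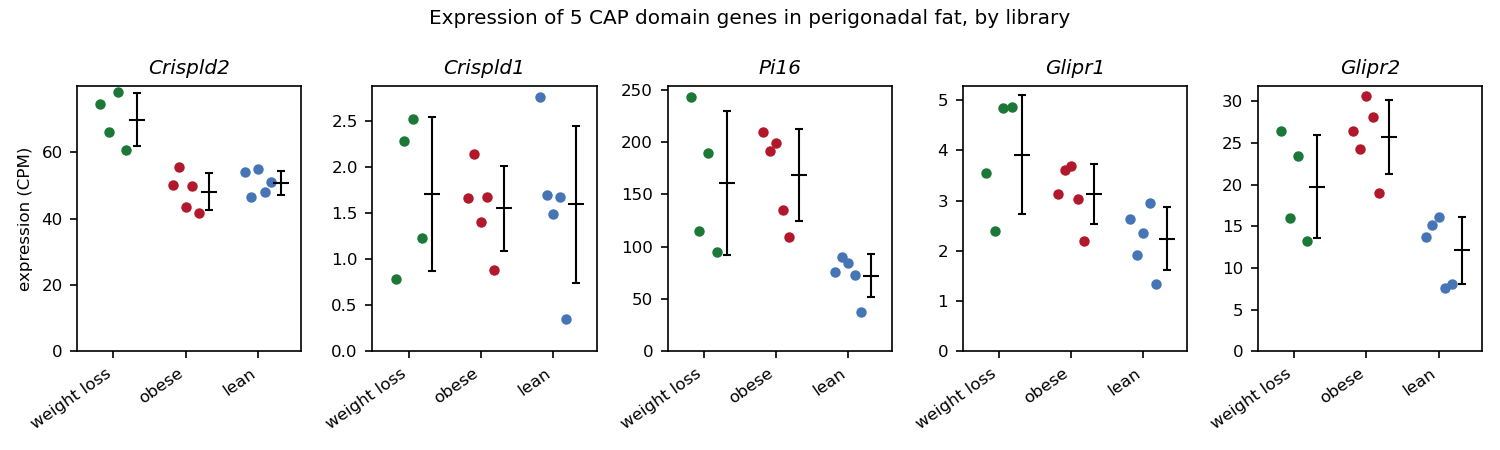
Expression in CPM of the 5 CAP domain genes, 1 point per library, with the mean and SD beside each group of 4 weight loss, 5 obese and 5 lean libraries. Crispld2 is highest in the 4 weight loss libraries (60.8 CPM or more), whereas Pi16 and Glipr2 have their lowest means in lean fat (72.4 and 12.1 CPM).

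Weight loss against obese fat sets mice after 1 week back on chow beside obese mice, whose diet in that week is not spelled out. Here 1 of the 5 genes, Crispld2, was higher and none was lower, while 0.736% of all genes tested were called higher and 0.881% lower. Crispld2 stood at 74.4, 66.0, 78.1 and 60.8 CPM in weight loss replicates 1 to 4, at 50.1, 55.7, 43.5, 49.8 and 41.8 CPM in obese replicates 1 to 5, and at 53.9, 46.5, 54.8, 47.9 and 50.9 CPM in lean replicates 1 to 5. Each weight loss library lay above every library of the other groups, and obese and lean libraries overlapped. Crispld2 rose 1.45-fold over the obese level, a log2 change of 0.54 ± 0.11 (95% interval 0.30 to 0.77, adjusted p = 0.025).

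The adjusted p of that difference was above 0.05 in 10 of 25 alternatives although the log2 value stayed between 0.48 and 0.59 in all of them. It was 0.364 when the fit held a term for the epididymal level and 0.388 when obese replicates 2, 4 and 5 and lean replicate 1 were dropped, 0.0563 with library totals alone as the scale, 0.0548 when only the compared groups were fitted and 0.0713 with the replicate number as a block. Dropping weight loss replicate 1 (0.0681) or 3 (0.0912), or obese replicate 3 (0.0761), 4 (0.0591) or 5 (0.0736), had the same effect on the call. Both obese libraries that remained in the smaller set, at 50.1 and 43.5 CPM, were below the lowest weight loss library. That follows from the lack of overlap over all libraries and is no separate check.

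Against lean fat the Crispld2 level after weight loss differed by 0.46 ± 0.11 on the log2 scale (95% interval 0.22 to 0.70, adjusted p = 0.139). None of the 5 genes passed in that comparison in edgeR's test, where 0.0329% of all genes did, though 4 of the 5 had an unadjusted p under 0.05. The share of all genes under that unadjusted threshold was not counted, here or for the lists below. Such counts therefore have no background beside them. DESeq2 called 2, Crispld2 (adjusted p = 0.0206) and Pi16 (adjusted p = 0.0115), and limma-voom called 0. Over all genes, too, DESeq2 called more than edgeR's test in each comparison. Obese fat differed from lean fat in Crispld2 by -0.08 ± 0.11 (95% interval -0.30 to 0.15, adjusted p = 0.714). Weight loss against obese and against lean fat share the weight loss libraries, so they are not separate pieces of evidence. Exact two-sided permutation tests of log2 CPM, 15 in all over the 5 genes and not adjusted, gave Crispld2 p = 0.0159 against obese and p = 0.0159 against lean fat, the smallest value that 126 arrangements allow with both tails counted.

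Crispld1, the nearest relative of Crispld2 here by its domains, was a low-count gene with 5 to 74 counts per library. It stood at 0.79, 2.29, 2.53 and 1.23 CPM in weight loss replicates 1 to 4, at 1.67, 2.15, 1.41, 1.68 and 0.882 CPM in obese replicates 1 to 5 and at 2.76, 1.70, 1.49, 1.68 and 0.355 CPM in lean replicates 1 to 5. The groups overlapped throughout. Its log2 value was 0.14 ± 0.48 for weight loss against obese fat (95% interval -0.90 to 1.17, adjusted p = 0.942) and -0.05 ± 0.46 for obese against lean fat (adjusted p = 0.967). The interval for weight loss against obese fat includes the 0.54 found for Crispld2, so a difference of that size in Crispld1 was neither shown nor excluded.

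Obese against lean fat asks what high-fat feeding changed. Pi16 and Glipr2 rose, 2 of the 5 genes, and none fell, while 5.86% of all genes tested were called higher and 3.85% lower. Pi16 had 243, 115, 189.9 and 95.3 CPM in weight loss replicates 1 to 4, 209.5, 191, 199, 135.5 and 109 CPM in obese replicates 1 to 5 and 75.5, 90.7, 84.7, 72.9 and 38.0 CPM in lean replicates 1 to 5. The lowest obese library and the lowest weight loss library each lay above the highest lean library. Pi16 rose 2.33-fold in obese over lean fat (log2 1.22 ± 0.28, adjusted p = 0.015) and was not called after weight loss against obese fat (log2 -0.07 ± 0.29, 95% interval -0.70 to 0.56, adjusted p = 0.952). After weight loss its level was 2.22-fold that of lean fat, a log2 value of 1.15 ± 0.29 that missed the threshold over all genes (adjusted p = 0.151, exact permutation p = 0.0159).

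Glipr2 had 26.5, 16.0, 23.4 and 13.2 CPM in weight loss replicates 1 to 4, 26.4, 24.3, 30.7, 28.2 and 19.0 CPM in obese replicates 1 to 5 and 13.7, 15.1, 16.1, 7.57 and 8.09 CPM in lean replicates 1 to 5. Obese and lean libraries did not overlap, and the weight loss libraries spanned the gap between them. The rise in obese over lean fat was 2.12-fold (log2 1.08 ± 0.25, adjusted p = 0.0141). After weight loss the log2 value was -0.38 ± 0.26 against obese fat (95% interval -0.93 to 0.17, adjusted p = 0.571) and 0.70 ± 0.26 against lean fat (adjusted p = 0.318). After the same 4 libraries were dropped, which left 2 obese and 4 lean ones, the obese against lean values were 1.52 ± 0.37 for Pi16 (adjusted p = 0.0967) and 1.28 ± 0.35 for Glipr2 (adjusted p = 0.129). With a term for the epididymal level they were 1.37 ± 0.33 (adjusted p = 0.0399) and 1.12 ± 0.30 (adjusted p = 0.0603).

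Glipr1, with 19 to 124 counts per library, was not called in any comparison. It had 3.56, 2.39, 4.84 and 4.86 CPM in weight loss replicates 1 to 4, 3.14, 3.60, 3.69, 3.04 and 2.19 CPM in obese replicates 1 to 5 and 2.63, 1.92, 2.35, 2.95 and 1.35 CPM in lean replicates 1 to 5. Of the 4 weight loss libraries 3 lay above every lean library. The log2 values were 0.32 ± 0.29 for weight loss against obese fat (adjusted p = 0.70), 0.80 ± 0.30 for weight loss against lean fat (adjusted p = 0.324) and 0.48 ± 0.28 for obese against lean fat (adjusted p = 0.325). Krr1, whose exons cover 22.8% of the exon bases of Glipr1 on the other strand, averaged 26.5 ± 4.61, 22.2 ± 1.26 and 23.9 ± 3.92 CPM in weight loss, obese and lean fat and had a Pearson r of 0.15 with Glipr1 over 14 libraries.

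**Figure D2:**
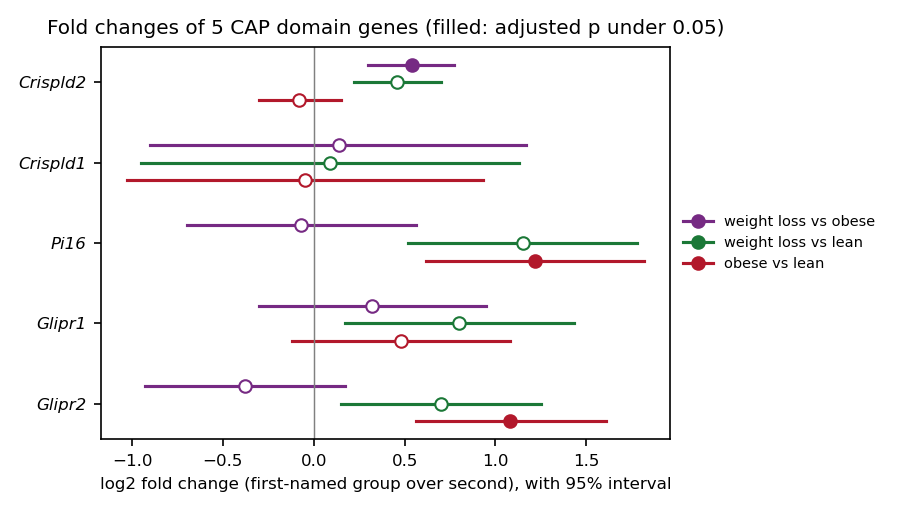
Log2 fold changes of the 5 genes with 95% intervals from the edgeR fit, in purple for weight loss against obese, green for weight loss against lean and red for obese against lean fat. The 3 filled points are the calls: Crispld2 in weight loss against obese fat (0.54), and Pi16 (1.22) and Glipr2 (1.08) in obese against lean fat.

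Whether Crispld2 and its relatives responded unequally was tested on their log2 ratio within each library, which scaling between libraries alters only through the prior count. In all, 12 such tests were run, 4 pairs in 3 comparisons. The log2 ratio of Crispld2 over Pi16 averaged -1.77 ± 0.36 in obese and -0.45 ± 0.52 in lean fat, a difference of -1.32 (exact permutation p = 0.00794, adjusted over the 12 tests p = 0.0476). Crispld2 over Glipr2 averaged 0.91 ± 0.28 in obese and 2.13 ± 0.49 in lean fat, a difference of -1.21 with the same p values. Obese and lean libraries overlapped in neither ratio, so Crispld2 differed in response from both genes. The 2 ratios share the Crispld2 values and the libraries in which Pi16 and Glipr2 were called, so they are not separate pieces of evidence. The ratio over Glipr1 differed by -0.57 between obese and lean fat (exact permutation p = 0.0238, adjusted p = 0.0714). Over Crispld1 it differed by -0.21 (exact permutation p = 0.817, adjusted p = 0.817). Outside the 4 libraries richest in epididymal markers, Crispld2 over Pi16 was -2.06 and -2.20 in obese replicates 1 and 3. It was -0.96 to 0.42 in lean replicates 2 to 5. Crispld2 over Glipr2 was 0.92 and 0.50 against 1.61 to 2.65. These libraries were not all free of epididymal markers, which summed to 371 CPM in obese replicate 3. A gap in this subset follows from the lack of overlap over all libraries and is no separate check.

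Between weight loss and obese fat the ratio of Crispld2 over Glipr2 averaged 1.86 ± 0.32 in weight loss and 0.91 ± 0.28 in obese fat, a difference of 0.95 without overlap (exact permutation p = 0.0159, adjusted over the 12 tests p = 0.0636). The ratio over Pi16 differed by 0.66 (exact permutation p = 0.0635, adjusted p = 0.152). For the 2 low-count genes, the ratio over Glipr1 differed by 0.25 (exact permutation p = 0.317, adjusted p = 0.438) and over Crispld1 by 0.49 (exact permutation p = 0.159, adjusted p = 0.273). Every adjusted p in this comparison was above the threshold, that of Glipr2 included. An unequal response of Crispld2 and any of these genes between weight loss and obese fat was therefore not shown.

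Pi16 and Glipr2 varied together across libraries, with a Pearson r of 0.90 over the 14 libraries and of 0.79 once each group's mean was taken out. The same values were 0.32 and 0.48 for Crispld2 and Pi16, and 0.14 and 0.48 for Crispld2 and Glipr2. All points share the library and its scaling, and the coefficients are descriptions. In weight loss fat, replicates 1 and 3 were higher than replicates 2 and 4 in Pi16, Glipr2 and Crispld2 alike.

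**Figure D3:**
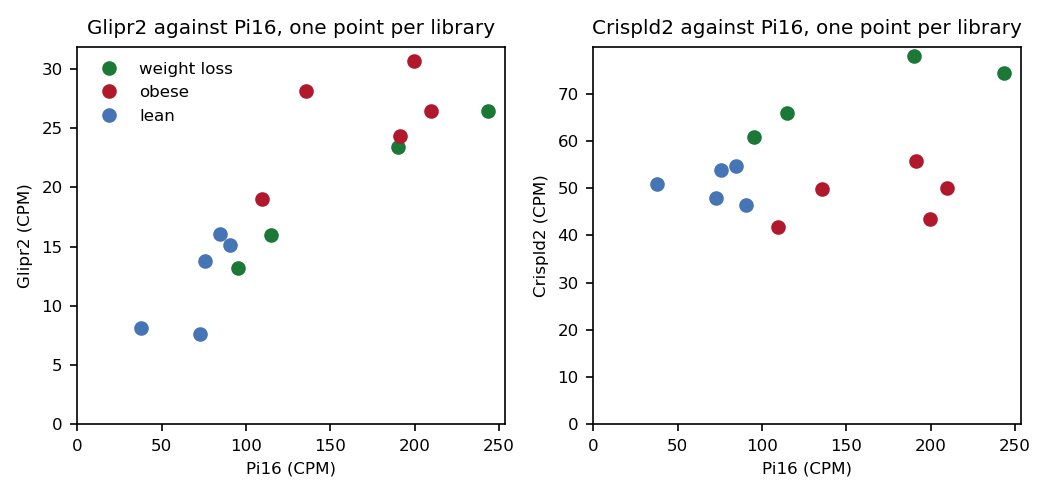
Glipr2 against Pi16 and Crispld2 against Pi16, both axes in CPM, 1 point per library, coloured by group. Glipr2 follows Pi16 across all 14 libraries (Pearson r 0.90), while the weight loss points lie above the others in Crispld2 at every level of Pi16.

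The progenitor markers other than Pi16 were higher in obese than in lean fat for 5 of 14 genes and lower for none. Their median log2 value was 0.62, against -0.021 over all genes tested. Those called were Cd55, which shields cells from complement (log2 1.39 ± 0.24, adjusted p = 0.00248), Ly6a, the Sca-1 antigen (0.59 ± 0.12, adjusted p = 0.00916), Sema3c, a secreted semaphorin (1.25 ± 0.29, adjusted p = 0.0163), Cd34 (0.61 ± 0.14, adjusted p = 0.0175) and Anxa3. Dpp4, the peptidase that defines these cells, averaged 40.4 CPM in obese fat, against 27.8 CPM in lean libraries (log2 0.54 ± 0.25, adjusted p = 0.194). For weight loss against obese fat 0 of 14 passed in edgeR's test, 1 had an unadjusted p under 0.05, and DESeq2 and limma-voom called 0 each. The summed level ran from 1027 to 1534 CPM in weight loss, from 1092 to 1484 CPM in obese and from 822 to 1004 CPM in lean fat. Of 12 macrophage markers, led by the complement gene C1qa, 8 were higher in obese than in lean fat and none lower, with summed levels of 615 to 1402 CPM in weight loss, 1011 to 1585 CPM in obese and 453 to 1000 CPM in lean fat. Of 11 fibroblast matrix genes, led by Col3a1, 6 were higher in obese than in lean fat and 1 was lower after weight loss than in obese fat. For all these lists, the shares over all genes tested were 5.86% higher and 3.85% lower in obese against lean fat. In weight loss against obese fat 0.736% were called higher and 0.881% lower. The part of these cells in the values of Pi16 and Glipr2 was not tested other than by ratios within a library.

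Pi16, Glipr2 and Crispld2 were set against summed markers within a library in 12 tests chosen after the values were seen. Pi16 over the progenitor markers averaged -2.99 ± 0.28 in obese and -3.73 ± 0.52 in lean fat on the log2 scale, a difference of 0.74 (exact permutation p = 0.0159, adjusted over the 12 tests p = 0.0382). Pi16 was thus higher relative to the sum, although the groups overlapped. The sum weighs abundant genes most, such as Ly6a (mean 287 CPM), which rose by 0.59. The median of the 14 markers was 0.62, but Cd55 (1.39) and Sema3c (1.25) rose about as much as Pi16 (1.22). Pi16 therefore did not exceed every marker. Glipr2 over the macrophage markers averaged -5.70 ± 0.14 in obese and -5.72 ± 0.25 in lean fat, a difference of 0.03 (exact permutation p = 0.841), and over the progenitor markers it differed by 0.64 (exact permutation p = 0.00794, adjusted p = 0.0382). Glipr2 over the progenitor markers was also lower in weight loss (-6.05 ± 0.19) than in obese fat (-5.68 ± 0.22), with a difference of -0.37 and no overlap (exact permutation p = 0.0159, adjusted p = 0.0382).

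Crispld2 over the progenitor markers averaged -4.18 ± 0.14 in weight loss, -4.76 ± 0.11 in obese and -4.18 ± 0.05 in lean fat. The ratio was higher in weight loss than in obese fat by 0.58 without overlap (exact permutation p = 0.0159, adjusted p = 0.0382) and lower in obese than in lean fat by 0.58, again without overlap (exact permutation p = 0.00794, adjusted p = 0.0382). Weight loss and lean fat overlapped. Between obese and lean fat Crispld2 itself differed by only -0.08 ± 0.11 (edgeR adjusted p = 0.714), while the summed markers averaged 1306 and 921 CPM. The lower ratio in obese fat thus came with the higher marker sum. Which cells carry Crispld2 was not tested. In obese replicates 1 and 3, which were not among the 4 libraries richest in epididymal markers, the ratio was -4.89 and -4.87. Both values were lower than in the other obese libraries. Obese replicate 3 still held 371 CPM of epididymal markers.

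**Figure D4:**
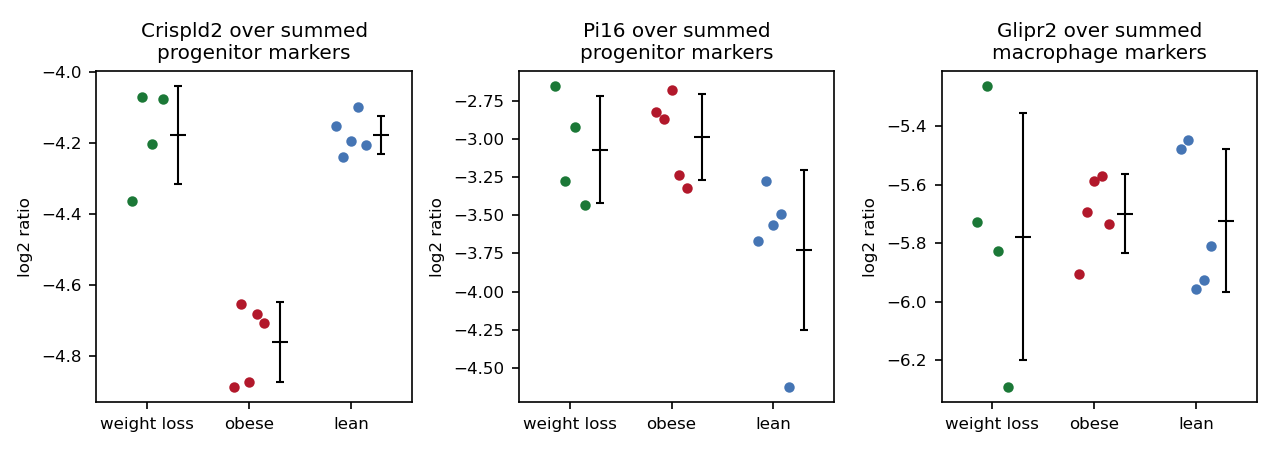
Log2 ratio of Crispld2 and Pi16 over 14 summed progenitor markers and of Glipr2 over 12 summed macrophage markers, 1 point per library, with mean and SD. The Crispld2 ratio is lower in obese fat (-4.76) than in weight loss and lean fat (-4.18 in both), while the Pi16 ratio has its lowest mean in lean fat (-3.73) and the Glipr2 ratio overlaps in all groups.

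Of 10 other CAP superfamily genes in the table, 6 passed the filter on low counts, and none was called in any comparison. In edgeR's test 0, 1 and 1 of them had an unadjusted p under 0.05 in obese against lean, weight loss against obese and weight loss against lean fat, DESeq2 called 0, 1 and 1, and limma-voom called none. Pi15, a peptidase inhibitor gene close to the Crispld genes, averaged 10.4 ± 2.24 CPM in weight loss (SD, n = 4), 9.24 ± 3.37 CPM in obese and 10.6 ± 2.93 CPM in lean fat (SD, n = 5 each). Clec18a, a lectin gene, averaged 1.37, 2.78 and 1.83 CPM in weight loss, obese and lean fat.

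The Crisp genes, known for products of the male reproductive tract, differed from library to library. Crisp1, an epididymal sperm-coating protein, reached 523 CPM in obese replicate 4, 145.5 CPM in obese replicate 5, 88.6 CPM in obese replicate 3 and 44.0 CPM in obese replicate 2, and 541 CPM in lean replicate 4 and 306 CPM in lean replicate 1. In weight loss fat it reached 55.3 CPM in replicate 4 and was under 1 CPM in the others. Crisp4, also epididymal in mice, was listed at 0 in all weight loss libraries and ran from 0 to 15.5 CPM in obese and from 0 to 4.99 CPM in lean libraries. Crisp2, a sperm protein gene, and Crisp3 stayed at 8.85 CPM or below in every library. The remaining 4, R3hdml, Glipr1l1, Glipr1l2 and Glipr1l3, had between 0 and 27 counts summed over the 14 libraries.

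**Figure D5:**
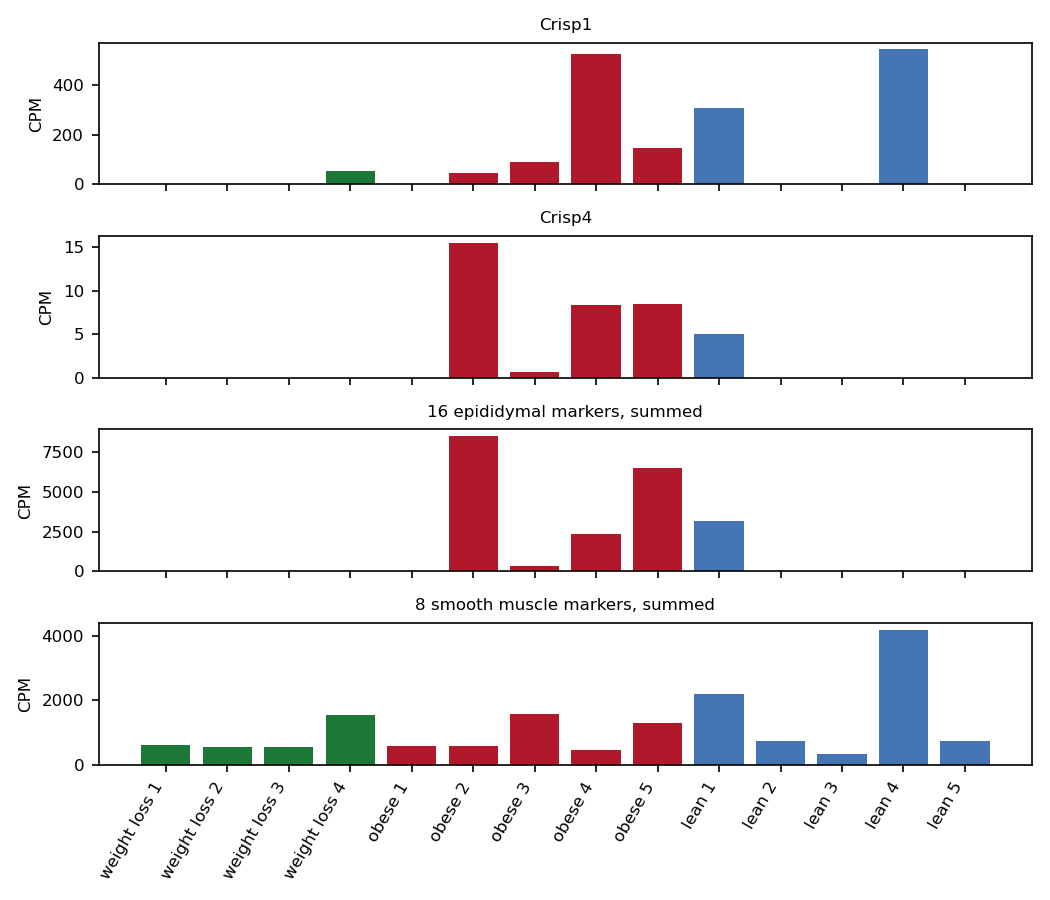
Crisp1, Crisp4, 16 summed epididymal markers and 8 summed smooth muscle markers in CPM, 1 bar per library in the order weight loss, obese, lean. Crisp4 is above 1 CPM in the 4 libraries richest in epididymal markers, whereas Crisp1 is as high in lean replicate 4 (541 CPM), where these markers sum to 6.30 CPM and smooth muscle markers to 4189 CPM.

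Of 4 other genes with an LCCL domain, 1 was called higher in obese than in lean fat, where 5.86% of all genes tested were. Dcbld2, a neuropilin-like membrane receptor, rose in obese fat (63.2 CPM) over lean fat (39.9 CPM), by 0.66 ± 0.16 on the log2 scale (adjusted p = 0.0181). Vit, Dcbld1 and Coch passed in no comparison, and Vit, at 15.7, 11.4 and 13.6 CPM in weight loss, obese and lean fat, had a log2 value of 0.46 ± 0.19 for weight loss against obese fat (adjusted p = 0.282).

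Among 17 genes of lipopolysaccharide recognition and TLR4 signalling, 3 were higher in obese than in lean fat and none lower, and 1 was lower after weight loss than in obese fat and none higher. The background of calls in either direction was 9.71% for obese against lean and 1.62% for weight loss against obese fat. Lbp, which delivers lipopolysaccharide to its receptors, stood at 189.5, 239, 167 and 163 CPM in weight loss replicates 1 to 4, at 427, 452, 446.5, 439 and 499.5 CPM in obese replicates 1 to 5 and at 226, 184, 159, 139.9 and 133 CPM in lean replicates 1 to 5. Every obese library was above all others, and weight loss and lean libraries overlapped.

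Lbp fell in weight loss against obese fat (log2 -1.26 ± 0.16, adjusted p = 0.00116) and rose by 1.43 ± 0.15 in obese over lean fat (adjusted p = 7.9e-05), so it and Crispld2, both genes of lipopolysaccharide-binding proteins, had opposite signs after weight loss. The fall had an adjusted p of 0.0681 once the epididymal level was in the fit. Irak2, a signalling kinase below the receptor (0.82 ± 0.17, adjusted p = 0.00972), and Ly96, the co-receptor MD-2 (0.89 ± 0.25, adjusted p = 0.0376), were the other calls in obese against lean fat. The receptor gene Tlr4 had 11.4, 12.7 and 11.1 CPM and its co-receptor Cd14 had 24.3, 23.4 and 24.0 CPM in weight loss, obese and lean fat, with no call. Set against lean fat, weight loss fat had 0 of 17 that passed in edgeR's test, while 4 had an unadjusted p under 0.05, DESeq2 called 2 and limma-voom 0.

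Of the 14 inflammatory mediators tested, 4 were higher in obese than in lean fat and none lower. They were the monocyte chemokines Ccl7 (log2 2.40 ± 0.35, adjusted p = 0.000962) and Ccl2 (2.55 ± 0.44, adjusted p = 0.00265), Ccl3 and Il1rn. Over all genes tested, 5.86% were called higher and 3.85% lower. No mediator passed in weight loss against obese fat in edgeR's test, while 1 had an unadjusted p under 0.05 and DESeq2 and limma-voom called 0 each. Set against lean fat the numbers were 0 in edgeR's test, 5 unadjusted, 4 with DESeq2 and 0 with limma-voom.

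CRISPLD2 is known as a glucocorticoid-responsive gene in human airway smooth muscle, and 17 genes of that response were read beside it. After weight loss, 14 of the 17 had positive log2 values against obese fat with a median of 0.29, beside 0.021 over all genes, but 0 passed in edgeR's test, 5 had an unadjusted p under 0.05, and DESeq2 and limma-voom called 0 each. Nr3c1, the receptor gene, had 92.1, 67.1 and 90.3 CPM in weight loss, obese and lean fat (log2 0.46 ± 0.25 for weight loss against obese fat, adjusted p = 0.455). Fkbp5, a co-chaperone target of the receptor, had 239, 201.5 and 259.6 CPM (0.25 ± 0.24, adjusted p = 0.721). In obese against lean fat Per1, a clock gene (-0.71 ± 0.15, adjusted p = 0.00972), and Klf15 (-0.85 ± 0.21, adjusted p = 0.0198) fell and Pdk4, which restrains pyruvate oxidation, rose (1.09 ± 0.30, adjusted p = 0.0355). That made 2 of the 17 lower and 1 higher, while 3.85% of all genes tested were called lower and 5.86% higher.

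The genes whose log2 CPM was most like that of Crispld2 over the 14 libraries, among 11236 with a mean of at least 5 CPM, included Ate1, an arginyltransferase (Pearson r 0.885, and 0.737 within groups), the monocarboxylate transporter gene Slc16a6 (0.881), Clmn (0.88), Clasp2, which binds growing microtubule ends (0.868), Gm16973 (0.864), Spsb1 (0.861) and Slc16a10, an aromatic amino acid transporter (0.853). Of these 7 genes, Clmn (log2 0.63 ± 0.13, adjusted p = 0.0208) and Slc16a10 (0.51 ± 0.12, adjusted p = 0.047) were called higher in weight loss than in obese fat, and these calls held in 18 and 6 of 25 alternatives. None of the 7 was called in obese against lean fat. The 7 were picked by a likeness to Crispld2 that includes the group differences, so these calls are not separate evidence.

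Pi16 was most like Col14a1, a fibril-associated collagen (r 0.975), Ccl11, the eosinophil chemokine eotaxin (0.965), Pamr1 (0.963) and Pik3cg (0.956). Glipr2 was most like the matrix gene Emilin2 (0.972), Ear2, an eosinophil-associated ribonuclease (0.971), Fbn1, the fibrillin of microfibrils (0.969), and Fam111a (0.953). All but Pik3cg of these 8 rose in obese over lean fat, for example Fbn1 by 2.11 ± 0.41 (adjusted p = 0.00601) and Emilin2 by 1.71 ± 0.30 (adjusted p = 0.00302). None of the 8 was called in weight loss against obese fat. The 8 were picked for following Pi16 or Glipr2 over all libraries, group differences included. Their rise in obese fat is therefore not separate evidence. For the low-count genes, the closest were Bivm (0.88), Spata5 (0.88), Man1a2 (0.853) and Mpp5 (0.851) for Crispld1 and Nsun2 (0.898), Gpbp1 (0.88), Plaa (0.869) and Cyp2s1 (0.861) for Glipr1. Of 27 calls of genes outside the CAP family that the naming rule picked, 24 were lost when the same 4 libraries were dropped and 15 with a term for the epididymal level. Their log2 values kept their sign in all alternatives, for example 2.31 to 2.78 for Ccl2, 1.90 to 2.52 for Fbn1 and 1.51 to 1.96 for Emilin2. The libraries share their depth and groups, so these coefficients describe 14 libraries and carry no test.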

How the data were processed

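RNA of 15 fat libraries was measured by sequencing. The authors deposited 1 table of expected counts, keyed by Entrez ID and without normalization; 34.8% of its values are not whole. The build was mm10 per the submitters' processing notes; for the aligner, the counting tool and the strand setting, no value is given in the sources used here. Its 36172 lines held 35794 IDs, repeated IDs were summed, and 32919 IDs matched a RefSeq symbol (GRCm38.p6). Libraries below 1000000 counts were left out and counts rounded to whole numbers. Exon lengths came from GENCODE M21.

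Genes were kept by filterByExpr (15208), scaled by TMM and fitted in 1 model over the 3 groups with edgeR 4.0.16 (estimateDisp, glmQLFit, glmQLFTest) in R 4.3.3, tested two-sided. A standard error is the size of the log2 value divided by the root of its F statistic. Permutation tests and ratios between member genes used log2 CPM with a prior count of 2, and ratios over summed markers used CPM with none, in SciPy 1.17.1. The fit was checked on simulated data. It found 34% to 40% of 2-fold changes and 2% to 5% of 1.5-fold changes, depending on the comparison. A gene that was not called may therefore still differ. Alternatives used other scalings and filters, DESeq2 1.42.0, limma-voom (limma 3.58.1), fits of the compared groups alone, a block for the replicate number, each library left out, and, chosen after the data were seen, the epididymal level as a covariate or the 4 richest libraries left out.

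Genes were named by rule: the 5 members, all other CAP genes, up to 4 called genes of each list by smallest p, the most abundant marker of other cell types, and the 8 (Crispld2) or 4 (others) genes of highest Pearson r. Of the last, 1 is not reported here. Anxa3, Dpp4, Tlr4, Cd14, Nr3c1, Fkbp5, Vit, Dcbld1, Coch, Acta2 and Krr1 were named after their values were seen. The members and lists were chosen with earlier results of these data known.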

Additional observations from a re-analysis of the deposited data

Results flagged for a closer look

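Of 33 groups checked over 11 CAP genes, 4 held a library far from the rest by Dixon's test, which flags about 1 in 20 groups by chance. Crisp1 was 55.3 CPM in weight loss replicate 4, where the next library had 0.712 CPM. Crisp1 was 523 CPM in obese replicate 4, where the next had 145.5 CPM, and Crisp2 was 8.85 CPM in the same library, where the next had 0.784 CPM. Crisp4 was 4.99 CPM in lean replicate 1 and listed at 0 in the other lean libraries. None of Crispld2, Crispld1, Pi16, Glipr1 and Glipr2 had such a library in any group.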

How the results depend on the processing

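Of 375 comparisons of a member's result with an alternative, 360 stayed on the same side of the threshold, 13 lost a call, 2 gained one and none turned a call round. In 16 of the 360 the sign of an uncalled value changed, all for Crispld1 or Pi16. For Crispld2 in weight loss against obese fat the values that lost the call were 0.55 with library size only, 0.53 with only the groups compared, 0.51 with the replicate block, 0.56 with the epididymal level as a covariate and 0.58 without the 4 richest libraries. With each library left out in turn they ran from 0.48 to 0.59. Pi16 (1.52) and Glipr2 (1.28) in obese against lean fat lost the call without the 4 richest libraries, and Glipr2 (1.12) with the covariate. Left-out libraries gave 1.06 to 1.31 for Pi16 and 0.92 to 1.21 for Glipr2. DESeq2 added Crispld2 (0.44) and Pi16 (1.13) in weight loss against lean fat, where left-out libraries gave 0.40 to 0.49 and 0.88 to 1.30. Both epididymal alternatives were chosen after seeing the data. The cause of these differences was not tested.

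Genes called in obese against lean fat numbered 1477, or 2260 with DESeq2, 424 with the covariate, 125 without the 4 richest libraries and 849 to 1673 with 1 library left out. In weight loss against obese fat they numbered 246, or 691, 19, 20 and 141 to 265 in the same order. In weight loss against lean fat they numbered 5, or 243, 3, 0 and 0 to 130, and 1 with limma-voom, 0 with only the groups compared and 2 with the replicate block. Correlations of deviations ran from -0.553 to 0.399 between same-numbered libraries and from -0.467 to 0.604 between differently numbered ones. They carry no test, so whether the numbers mark pairs or batches was not settled. The block ended no other member's call than that of Crispld2. Other named genes stayed on the same side in 4157 of 4315 comparisons, and list counts stayed within 1.5 times in 2253 of 2400. Crispld1 had the fewest counts of the 5 genes, at 5 to 74 per library.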

Other observations

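Crisp1 and the epididymal markers were both high in obese replicate 4 (523 and 2354 CPM), obese replicate 5 (145.5 and 6517 CPM) and lean replicate 1 (306 and 3158 CPM), but not in all libraries. In lean replicate 4 Crisp1 reached 541 CPM while 16 epididymal markers summed to 6.30 CPM, Crisp4 was listed at 0 and 8 smooth muscle markers summed to 4189 CPM, their highest sum among the 14 libraries. Acta2, the defining smooth muscle marker, is listed at 0 in every library. In obese replicate 2, which had the highest epididymal sum (8518 CPM), Crisp1 stood at 44.0 CPM and the smooth muscle markers at 599 CPM. In lean replicate 1 the smooth muscle markers summed to 2188 CPM.

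Within weight loss fat, replicates 1 and 3 stood above replicates 2 and 4 in fibroblast matrix genes (4260 and 4380 against 3283 and 2490 CPM, summed over 11 genes) and in Col14a1, and the same libraries were higher in Pi16, Glipr2 and Crispld2. These groups of libraries were seen in the data and carry no test.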
